A study of Drosophila melanogaster with 9 samples.

Results

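The 10 genes described here belong to the epidermal growth factor (EGF) receptor pathway of *Drosophila melanogaster*, 10 of the 14077 genes to which reads could be assigned. They were chosen by name, as the receptor *Egfr*, the ligand genes *spi* and *Krn*, the ligand-processing protease gene *rho*, the feedback inhibitor genes *aos*, *kek1* and *sty*, and the transcription factor genes *pnt*, *mirr* and *cic*. Their levels come from TRAP-seq, in which ribosomes carrying a GFP-tagged large-subunit protein (RpL10Ab, written Rpl10A in the sample labels) were pulled down from the cells where a GAL4 driver was active and the bound mRNA was sequenced. All 3 groups carried the tag, had 3 biological replicates each and used thoraxes and abdomens of about 100 flies per library. Fed AFC libraries came from GR1-Gal4>UAS-Rpl10A-GFP flies, with tagged ribosomes in all follicle cells after early oogenesis (AFCs, called main body follicle cells in the sample labels), kept for 3 days at 25°C and for another 2 days on fresh yeast paste. Starved AFC libraries had the same genotype and 16 to 20 h on yeast-free apple juice agar. Fed SFC libraries came from PG150-Gal4>UAS-Rpl10A-GFP flies fed like the fed AFC flies, with tagged ribosomes in the stretch follicle cells (SFCs) that cover the nurse cells, and in centripetal cells. *GR1-GAL4* is active in SFCs too, so the AFC libraries include SFC mRNA. The study also reports weak activity of *GR1* in the gut and of *PG150* in the Malpighian tubules, which it names as a possible confounder.

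The EGF receptor is a tyrosine kinase that signals through Ras and the MAP kinase cascade. In the ovary it is known for patterning the follicle cells: the oocyte secretes the ligand Gurken, which first gives neighbouring follicle cells a posterior fate and later a dorsal fate. In the dorsal follicle cells the signal induces *rho*, whose product releases Spitz and Keren from their membrane-bound precursors, and then its own inhibitors, among them Argos, Kekkon-1 and Sprouty, so that the domain of signalling is split into the fields that make the dorsal appendages of the eggshell.

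Library totals ranged from 30551253 to 45910215 reads, and 10870 genes passed the filter on low counts, all 10 pathway genes among them. A pair of libraries stood apart. Fed AFC replicate 1 had 13253 genes with at least 10 reads, where the others had 9273 to 10872, and rRNA genes took 36.3% of the reads of SFC replicate 2 and 1.19% to 21.5% of the others. Starved AFC replicate 2 resembled fed AFC replicate 1 in that few tested genes were at 0. These numbered 24 and 19, beside 107 to 1626 in the other libraries. Of 11 stretch follicle cell markers named in the study's methods, none was called between SFCs and fed AFCs by edgeR, and their summed level was 853 to 1223 CPM (reads scaled to the size of the library) in SFCs against 813 to 930.1 in fed AFCs. Eggshell genes of main body follicle cells fell in 9 of 11 cases in SFCs and in 6 of 11 in starved AFCs, each against fed AFCs. In bulk libraries, fewer cells of a type and less mRNA per cell cannot be told apart.

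Per transcript length, the ligand genes *spi* and *Krn* had the highest levels of the 10 genes. In fed AFCs *spi* stood at 11.2 ± 0.585 TPM (reads scaled to transcript length and library, mean ± SD, n = 3) and *Krn* at 6.82 ± 1.96, whereas *Egfr* stood at 0.764 ± 0.706. Of all genes tested, 64.5% had a lower mean TPM than *spi* in fed AFCs, 54.4% a lower one than *Krn* and 22.9% a lower one than *Egfr*. In every one of the 9 libraries *spi* was above *Krn*, by a TPM ratio of 1.24 to 2.13, and above *Egfr*, by 7.43 to 36.4. *spi* and *Krn* were the first and second of the 10 in each group, and their ranges over libraries did not overlap within any group. *cic* was the third in each group, and its range was separate from the next gene only in SFCs. From the fourth gene down, neighbours in the order overlapped in all 3 groups, with group means of 0.150 to 1.17 TPM. *rho* was last in each group. Other genes of the pathway stood higher, with a mean of 59.9 TPM in fed AFCs for *Dsor1*, the MAP kinase kinase gene, and 17.8 for *Ras85D*, both singled out after their values were seen.

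**Figure D1:**
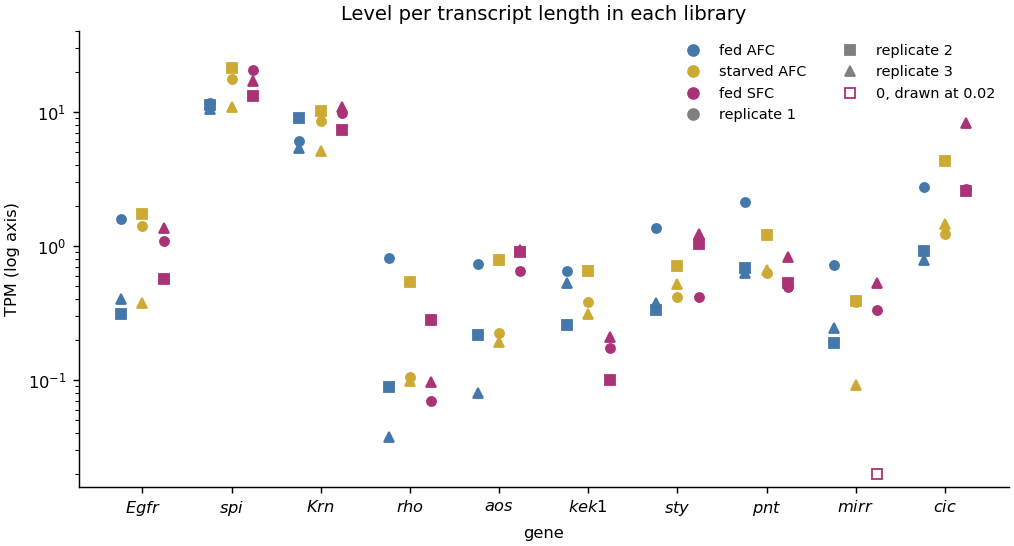
Level of the 10 genes in TPM on a log axis, 1 point per library, coloured by group and shaped by replicate. *spi* and *Krn* lie above the other genes in each group except that *cic* of SFC replicate 3, at 8.26 TPM, reaches the range of *Krn*; the open square is *mirr* at 0 in SFC replicate 2.

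Groups were compared with edgeR's quasi-likelihood test on read counts, with p-values adjusted over all 10870 genes and a threshold of 0.05; LFC is the log2 fold change and levels below are CPM. None of the 10 genes passed in any comparison. Between SFCs and fed AFCs, 0 of 10 were called beside 2.99% of all genes, and 2 of 10 (*cic* higher, *kek1* lower) had an unadjusted p below 0.05 beside 19.7%. Between starved and fed AFCs, 0 of 10 were called beside 0.221%, and 0 of 10 had an unadjusted p below 0.05 beside 5.02%. Between SFCs and starved AFCs, 0 of 10 were called beside 2.22%, and the same 2 had an unadjusted p below 0.05 beside 17.9%. limma-voom called 0 of 10 in each comparison. DESeq2 called *kek1* (adjusted p = 0.0119) and *cic* (adjusted p = 0.0439) in SFCs against fed AFCs and 0 of 10 in the other comparisons. Among all 10870 genes DESeq2 called 1061 in SFCs against fed AFCs, 101 in starved against fed AFCs and 891 in SFCs against starved AFCs.

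The libraries of the compared groups did not overlap for *spi* (higher) and *kek1* (lower) in SFCs against fed AFCs, 2 of 10 genes beside 20.9% of all genes. They did not overlap for *spi* (higher) in starved against fed AFCs, 1 of 10 beside 12.1%, nor for *kek1* (lower) in SFCs against starved AFCs, 1 of 10 beside 24.6%. The median LFC of the 10 genes was 0.25, -0.18 and -0.02 in these comparisons, and that of all genes was -0.10, -0.09 and -0.02. The first and second comparison share the fed AFC libraries. Within fed AFCs, replicate 1 held the highest level of 7 of the 10 genes, as it did for 41.9% of all genes tested, and in *rho* it was 7.23 times the mean of the other fed AFC libraries. Without fed AFC replicate 1 and SFC replicate 2, the other libraries did not overlap for 6 of 10 genes in SFCs against fed AFCs (*Egfr*, *spi*, *aos* and *cic* higher, *kek1* and *pnt* lower), where 53.8% of all genes did not, and the test again called 0 of 10.

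**Figure D2:**
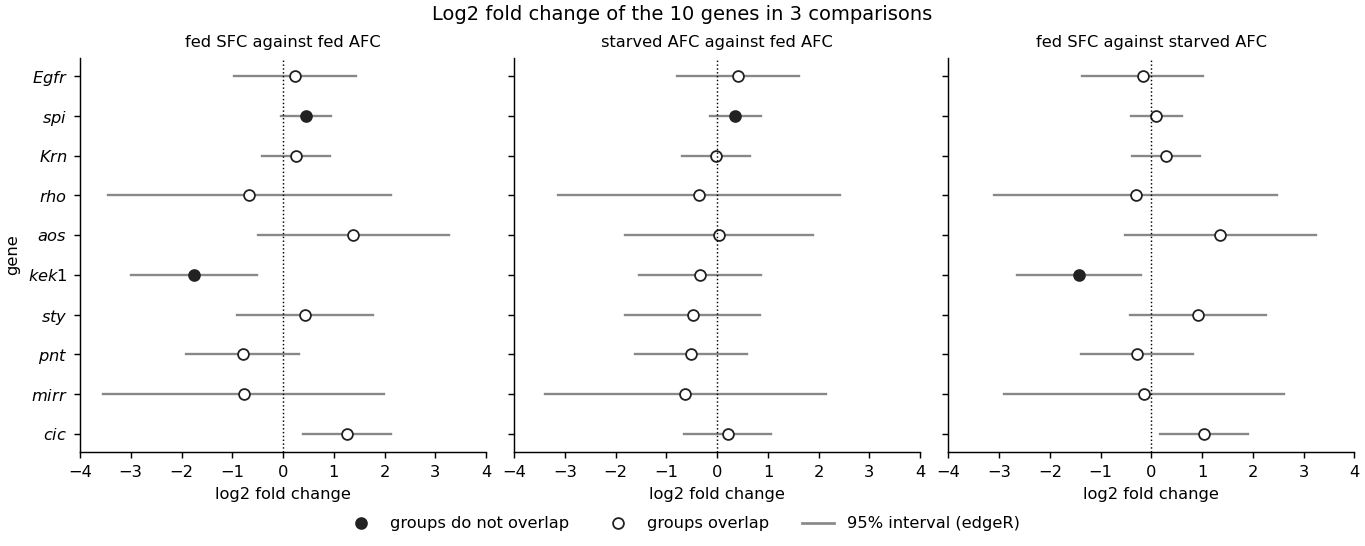
Log2 fold change of each gene in the 3 comparisons with its 95% interval from the edgeR fit, filled where the libraries of both groups do not overlap. Before adjustment, the intervals of *kek1* and *cic* lie off 0 in both SFC comparisons, and those of *rho* and *mirr* are the widest.

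*Egfr* (FBgn0003731, chromosome 2R from 21522420 to 21559977 of BDGP6.54, plus strand) encodes the only EGF receptor of the fly. Its level was 14.9, 3.41 and 5.25 CPM in fed AFC replicates 1 to 3, 13.6, 12.8 and 4.94 in starved AFCs, and 8.13, 8.71 and 11.0 in SFCs. The AFC groups each spread over more than the distance between group means, whereas the SFC libraries lay close together and inside both AFC ranges. The LFC was 0.24 ± 0.55 (SE) in SFCs and 0.41 ± 0.55 in starved AFCs against fed AFCs (edgeR, adjusted p = 0.830 and 0.982), and the 95% interval in SFCs ran from -0.96 to 1.44. Without fed AFC replicate 1 the LFC was 1.1 in SFCs and 1.27 in starved AFCs (adjusted p = 0.220 and 0.658).

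*spi* (FBgn0005672, 2L from 19567900 to 19577315, minus strand) encodes the precursor of Spitz, the main ligand outside the germline. It was read at 24.9, 30.6 and 32.4 CPM in fed AFCs, 39.7, 37.7 and 35.1 in starved AFCs, and 36.8, 50.3 and 33.4 in SFCs. Every starved AFC and SFC library was above every fed AFC library, while starved AFCs and SFCs overlapped. This corresponded to an LFC of 0.45 ± 0.23 in SFCs and 0.36 ± 0.23 in starved AFCs, which did not pass (edgeR, adjusted p = 0.297 and 0.982). The intervals, -0.05 to 0.95 and -0.14 to 0.86, were the narrowest of the 10 genes, and *spi* had between 1011 and 2135 reads per library.

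*Krn* (FBgn0052179, 3L from 17649562 to 17654280, minus strand) encodes Keren, a ligand similar to Spitz. Its level was 11.5, 22.3 and 14.98 CPM in fed AFCs, 17.4, 15.9 and 14.4 in starved AFCs, and 15.5, 24.2 and 18.7 in SFCs, so that all 3 groups overlapped. The LFC was 0.26 ± 0.31 in SFCs and -0.03 ± 0.31 in starved AFCs (edgeR, adjusted p = 0.660 and 0.997). The first exon of *Krn*, 289 of its 1354 bases, is also the first exon of *Ndfip* on the same strand, and reads there were divided between both genes by Salmon's estimate. *Ndfip* had 24.0 to 38.1 CPM over the 9 libraries.

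*rho* (FBgn0004635, 3L from 1463811 to 1468944, plus strand) encodes the intramembrane protease Rhomboid that cleaves Spitz. It had 3.45, 0.667 and 0.288 CPM in fed AFCs, 0.581, 2.18 and 0.691 in starved AFCs, and 0.310, 2.03 and 0.462 in SFCs. One library stood above the rest in every group. These levels rest on 9 to 170 reads per library, and the interval of the LFC in SFCs, -3.45 to 2.12, leaves a difference in either direction undetected at this depth. Without fed AFC replicate 1 the LFC in SFCs went from -0.67 to 0.94 (edgeR, adjusted p = 0.797 and 0.676).

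**Figure D3:**
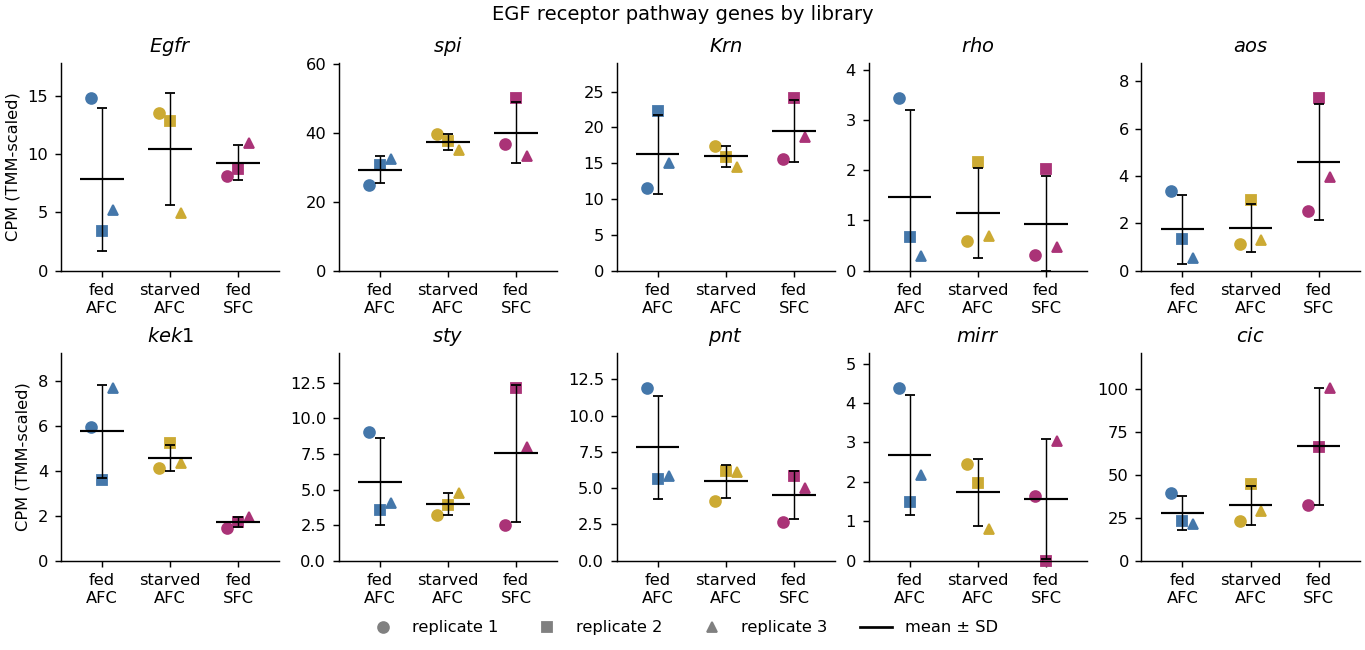
CPM of the 10 genes in each library, with a point per library shaped by replicate and lines for the group mean ± SD (n = 3, cut at 0). The 3 SFC libraries lie below all AFC libraries for *kek1*, at 1.48 to 1.93 CPM, and fed AFC replicate 1 is the highest fed AFC library in 7 panels.

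The LFC of the 3 feedback inhibitor genes in SFCs against fed AFCs ran from -1.75 to 1.39, with none past the threshold. *kek1* (FBgn0015399, 2L from 12817000 to 12822787, minus strand) encodes a transmembrane protein that binds the receptor and blocks its signalling, and its transcription in dorsal anterior follicle cells is a known readout of Gurken. It was read at 5.97, 3.62 and 7.71 CPM in fed AFCs, 4.12, 5.24 and 4.35 in starved AFCs, and 1.48, 1.72 and 1.93 in SFCs. All SFC libraries were below all AFC libraries, fed or starved, while the AFC groups overlapped. The LFC in SFCs was -1.75 ± 0.57 against fed AFCs and -1.42 ± 0.56 against starved AFCs, that is 3.37 and 2.67 times lower (edgeR, adjusted p = 0.125 and 0.213). In SFCs against fed AFCs it stayed between -1.95 and -1.44 when any 1 library was left out (adjusted p from 0.102 to 0.450). In starved against fed AFCs the LFC was -0.33 ± 0.55 (adjusted p = 0.984). Reads on *kek1* numbered 86, 38 and 92 in SFC replicates 1 to 3.

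*aos* (FBgn0004569, 3L from 16470386 to 16483650, minus strand) encodes Argos, a secreted protein that binds Spitz. Its level was 3.37, 1.33 and 0.544 CPM in fed AFCs, 1.11, 2.97 and 1.31 in starved AFCs, and 2.51, 7.31 and 3.97 in SFCs. The SFC mean of 4.60 was above the AFC means of 1.75 and 1.79, and the lowest SFC library lay within both AFC ranges. The LFC in SFCs was 1.39 ± 0.87 against fed AFCs and 1.35 ± 0.87 against starved AFCs (edgeR, adjusted p = 0.393 and 0.442). Without fed AFC replicate 1 the former was 2.28 (adjusted p = 0.136). Reads on *aos* numbered 17 to 189 per library.

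*sty* (FBgn0014388, 3L from 3401153 to 3424935, minus strand) encodes Sprouty, an intracellular inhibitor of Ras signalling. It had 9.06, 3.59 and 4.03 CPM in fed AFCs, 3.20, 3.95 and 4.79 in starved AFCs, and 2.53, 12.1 and 7.99 in SFCs. The SFC libraries held both the lowest and the highest value of all 9. The LFC was 0.44 ± 0.61 in SFCs and -0.48 ± 0.62 in starved AFCs (edgeR, adjusted p = 0.713 and 0.982).

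Among the transcription factors, *cic* (FBgn0262582, 3R from 20252770 to 20303942, plus strand) encodes Capicua, an HMG-box repressor whose activity is lowered by EGF receptor signalling. Its level was 39.4, 23.3 and 21.2 CPM in fed AFCs, 23.0, 44.9 and 29.1 in starved AFCs, and 32.7, 66.5 and 101 in SFCs. SFC replicates 2 and 3 were above every AFC library, and SFC replicate 1 was below fed AFC replicate 1 and starved AFC replicate 2. The LFC in SFCs was 1.25 ± 0.40 against fed AFCs and 1.04 ± 0.40 against starved AFCs, 2.38 and 2.06 times higher (edgeR, adjusted p = 0.120 and 0.198). Without SFC replicate 1 the LFC against fed AFCs was 1.59 and passed (adjusted p = 0.0397), and without SFC replicate 3 it was 0.83 and did not (adjusted p = 0.361). In starved against fed AFCs the LFC was 0.21 ± 0.39 (adjusted p = 0.985).

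*pnt* (FBgn0003118, 3R from 23290231 to 23346167, minus strand) encodes the ETS activator Pointed, through which MAP kinase switches on target genes. It had 11.9, 5.67 and 5.86 CPM in fed AFCs, 4.15, 6.17 and 6.12 in starved AFCs, and 2.69, 5.82 and 5.04 in SFCs. Apart from fed AFC replicate 1 and SFC replicate 1, all libraries lay between 4.15 and 6.17. The LFC was -0.79 ± 0.51 in SFCs and -0.51 ± 0.51 in starved AFCs (edgeR, adjusted p = 0.411 and 0.982), and -0.35 and -0.07 without fed AFC replicate 1 (adjusted p = 0.713 and 0.983).

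*mirr* (FBgn0014343, 3L from 12693639 to 12710249, plus strand) encodes the Iroquois homeodomain protein Mirror, made in dorsal anterior follicle cells in response to Gurken. It had 4.39, 1.49 and 2.18 CPM in fed AFCs, 2.46, 1.96 and 0.793 in starved AFCs, and 1.65, 0 and 3.03 in SFCs. SFC replicate 2 had no read on *mirr*, which allows up to 0.135 CPM (3 counts, counting error only), whereas the other SFC libraries had 96 and 144 reads. In SFC replicate 2, 1626 of the 10870 tested genes were at 0, beside 19 to 636 in the other libraries. The LFC in SFCs was -0.77 ± 1.27 with an interval of -3.54 to 1.99 (edgeR, adjusted p = 0.758), and 0.37 without fed AFC replicate 1 and SFC replicate 2 (adjusted p = 0.766).

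Markers of other tissues were compared between the same groups. Of 8 muscle genes, 4 rose in SFCs against fed AFCs and 3 against starved AFCs, and their summed level was 795.5 to 1761 CPM in SFCs, 308 to 638 in fed AFCs and 311 to 456 in starved AFCs. The muscle list includes *Mlc1*, *Mlc2*, *up*, *Tm2* and *bt*. The study reports these as higher in SFCs from the same libraries and describes them as regulators of the cytoskeleton that depend on calcium. The rise is therefore not independent of the study's own result. Of 6 germline genes 1 rose in SFCs against either AFC group, with sums of 988.5 to 1814 CPM in SFCs, 669 to 1105 in fed AFCs and 582 to 786 in starved AFCs. Of 7 midgut genes 6 fell in SFCs and 3 in starved AFCs against fed AFCs, with sums of 1173 to 2168 CPM in SFCs, 3939 to 6810 in fed AFCs and 2955 to 4088 in starved AFCs, and against starved AFCs 1 rose and 2 fell in SFCs. Of 6 Malpighian tubule genes 1 fell in SFCs against fed AFCs. Fat body sums overlapped between the groups, at 8317 to 20818 CPM in SFCs and 6223 to 11908 in fed AFCs, and of 5 genes 1 rose in SFCs against starved AFCs. The fat body list includes *Yp1*, which the study used as a mid/late follicle cell marker, so its sums are not particular to fat body. The study's mid/late follicle cell list (*Yp1*, *Sox14* and *br*) alone summed to 7599 to 18970 CPM in SFCs and 6024 to 10975 in fed AFCs. Of its 3 genes, 1 fell in SFCs against fed AFCs and 1 against starved AFCs, and none rose. Neuron and hemocyte markers summed to at most 17.9 CPM in a library, with none called in any comparison by edgeR. The neuron sum was 17.9 CPM in fed AFC replicate 1, 14.4 in starved AFC replicate 2 and 3.09 to 6.60 in the others. The hemocyte sum was 16.2 CPM in fed AFC replicate 1 and 1.56 to 10.2 in the others. *rho* and *aos* were also highest within their AFC group in fed AFC replicate 1 and starved AFC replicate 2. A further list of 4 follicle cell genes (*tj*, *Fas3*, *slbo* and *upd1*) summed to at most 53.9, also with none called. The eggshell genes of main body follicle cells summed to 13345 to 20335 CPM in fed AFCs. No list had a marker at 0 in a whole group. The part of these tissues in the levels of *kek1*, *cic*, *aos* or *rho* was not tested.

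Several of the 10 genes have more than 1 transcript in the annotation, and Salmon's estimates divide each gene's TPM between them. Shares were compared for *Egfr*, *spi*, *sty*, *pnt* and *cic*, which had at least 100 reads in every library. For the leading transcript of each, no comparison of 3 libraries against 3 gave an exact two-sided permutation p below 0.1, which is the smallest it allows, and the lowest p of the 15 comparisons was 0.1, for *sty-RC* in SFCs against starved AFCs. With 0.1 as the smallest possible p, none could pass 0.05, with or without Benjamini-Hochberg adjustment over these 15 comparisons.

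*pnt* was the least even of them. *pnt-RB*, which starts farthest upstream and encodes 718 residues (the P2 form, which MAP kinase activates), held 11.1%, 7.58% and 24.8% of the gene's TPM in fed AFCs, 0%, 43.5% and 0% in starved AFCs, and 80.3%, 0% and 68.5% in SFCs. It was the majority form in SFC replicates 1 and 3 and at 0 in SFC replicate 2. Its mean shares were 49.6 ± 43.3% in SFCs and 14.5 ± 9.13% in fed AFCs (SD, n = 3), with overlapping ranges (exact permutation p = 0.4, two-sided). This test cannot go below 0.1 here, so it cannot decide at 0.05. *pnt-RE*, which starts within the gene and encodes 625 residues, took most of the remainder. These shares rest on 129 to 587 reads per library on the whole gene.

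*cic* was read mainly as *cic-RG*, which starts at the first promoter and encodes 2150 residues, with 99.8% and 100% of the TPM in fed AFC replicates 2 and 3, 52.4% in fed AFC replicate 1, 46% to 89.3% in starved AFCs and 53.2% to 70.1% in SFCs. The shortest form, *cic-RH*, of 1275 residues, was singled out after its values were seen. It was at 0 in the fed AFC libraries, at 7.90%, 34.1% and 0% in starved AFCs, and at 10.3%, 29.9% and 17.0% in SFCs. The other shorter forms, *cic-RA*, *cic-RB* and *cic-RC*, did not share this pattern as a set. Their joint share averaged 15.2% for fed AFC libraries, 18.6% for starved ones and 18.1% for SFC libraries. Fed AFC replicate 1 had 45.6%, all *cic-RB*, and *cic-RA* had 26.1% and 26.9% of SFC replicates 1 and 3. Fed AFC replicates 2 and 3 and SFC replicate 2 had none of the set. For *Egfr*, *Egfr-RA* held 89.9% to 100% of the TPM in 8 libraries and 40.7% in fed AFC replicate 1, where *Egfr-RB*, which starts at a second site and encodes 1426 residues instead of 1377, held the rest. *rho-RA* held 84.5% of the TPM of *rho* in fed AFC replicate 1 and 100% in SFC replicate 2, and *rho-RB* all of it elsewhere, both with the same 355 residues.

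**Figure D4:**
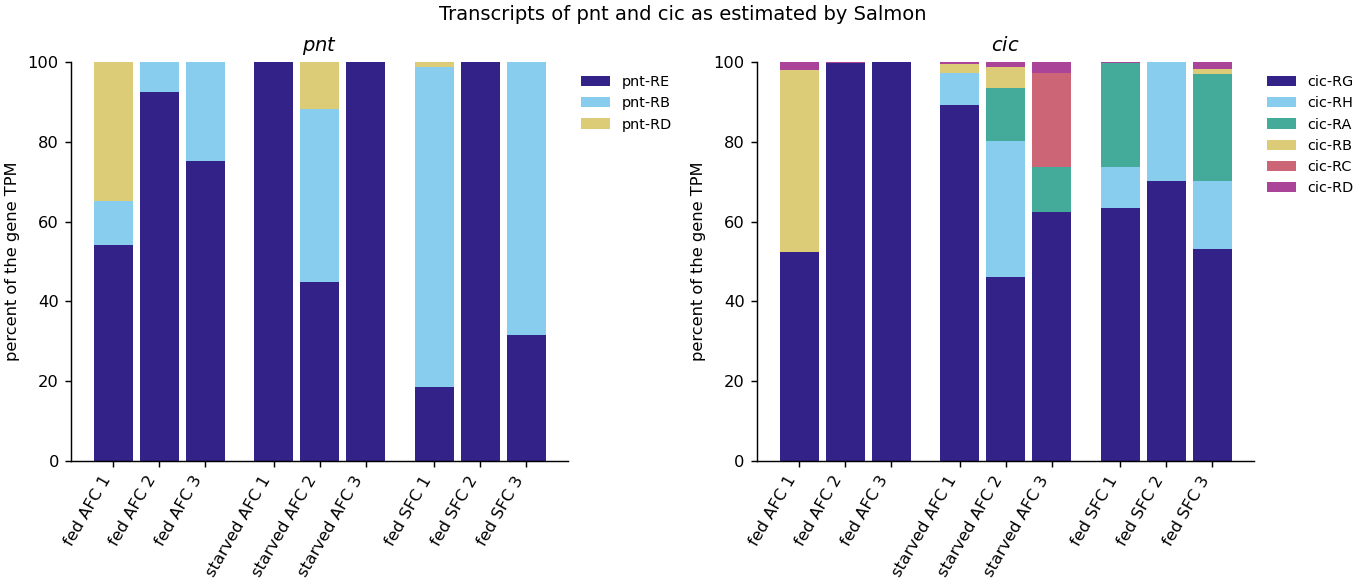
Percent of the TPM of *pnt* and *cic* in each transcript, 1 bar per library, as estimated by Salmon. *pnt-RB* is at 80.3% and 68.5% in SFC replicates 1 and 3 and at 0 in SFC replicate 2; *cic-RG* is the only transcript above 1% in fed AFC replicates 2 and 3.

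The other genes of the pathway were compared in the same way. Of 31 genes listed for ligands, ligand processing, Ras activation, the MAP kinase cascade, inhibitors and follicle cell targets, 31 were tested and 0 were called by edgeR or limma-voom in any comparison. At an unadjusted p below 0.05, 2 were higher and 1 lower in SFCs against fed AFCs beside 19.7% of all genes, 3 were lower and 0 higher in starved against fed AFCs beside 5.02%, and 4 were higher and 1 lower in SFCs against starved AFCs beside 17.9%. The median LFC of the list in these comparisons was 0.20, -0.25 and 0.40, beside -0.10, -0.09 and -0.02 over all genes. DESeq2 called 1 of the 31, *pip*, lower in starved against fed AFCs, beside 101 of all 10870 genes.

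The mRNA of Gurken, the ligand that the oocyte secretes, was present in every follicle cell library. *grk* had 11.8, 20.1 and 14.4 CPM in fed AFCs, 15.9, 9.71 and 6.86 in starved AFCs, and 17.8, 21.3 and 12.4 in SFCs, with an LFC of 0.15 ± 0.37 in SFCs and -0.51 ± 0.38 in starved AFCs (edgeR, adjusted p = 0.839 and 0.982). The ligand gene *vn*, for Vein, was at 0.160 to 4.42 CPM over the 9 libraries. *S* encodes Star, which carries Spitz out of the endoplasmic reticulum, and had 32.3, 25.5 and 21.6 CPM in fed AFCs, 21.5, 33.8 and 25.1 in starved AFCs, and 29.8, 43.6 and 66.5 in SFCs. Its LFC in SFCs was 0.82 ± 0.31 against fed AFCs (edgeR, adjusted p = 0.178). *ru*, a second rhomboid protease gene, was at 3.29 CPM in fed AFC replicate 1 and at most 0.885 CPM in the other libraries.

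Among the nuclear factors, *aop* (the ETS repressor Yan) had an LFC of 0.59 ± 0.33 in SFCs and 0.01 ± 0.33 in starved AFCs (edgeR, adjusted p = 0.339 and 0.997). *br* encodes Broad, a zinc-finger factor that marks the cells forming the roof of the dorsal appendages, and had 21.7, 4.10 and 8.16 CPM in fed AFCs, 4.09, 4.45 and 2.53 in starved AFCs, and 5.22, 8.76 and 6.68 in SFCs. Its LFC in starved AFCs was -1.62 ± 0.58, with overlapping libraries (edgeR, adjusted p = 0.752). Another 2 genes were singled out after their values were seen. *pip*, which encodes a sulfotransferase of the ventral follicle cells that EGF receptor signalling keeps off dorsally, had 12.4, 6.82 and 2.53 CPM in fed AFCs and 1.32, 1.89 and 0.896 in starved AFCs, with no overlap and an LFC of -2.41 ± 0.71 (edgeR, adjusted p = 0.486). *edl*, an inhibitor of Pointed and Yan, had 8.08, 6.08 and 6.53 CPM in fed AFCs and 2.32, 2.21 and 3.45 in SFCs, with no overlap and an LFC of -1.37 ± 0.55 (edgeR, adjusted p = 0.197). Of the 31 genes, 3 were higher and 2 lower without overlap in starved against fed AFCs, beside 12.1% of all genes. In SFCs against fed AFCs 0 were higher and 4 lower without overlap, beside 20.9%.

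**Figure D5:**
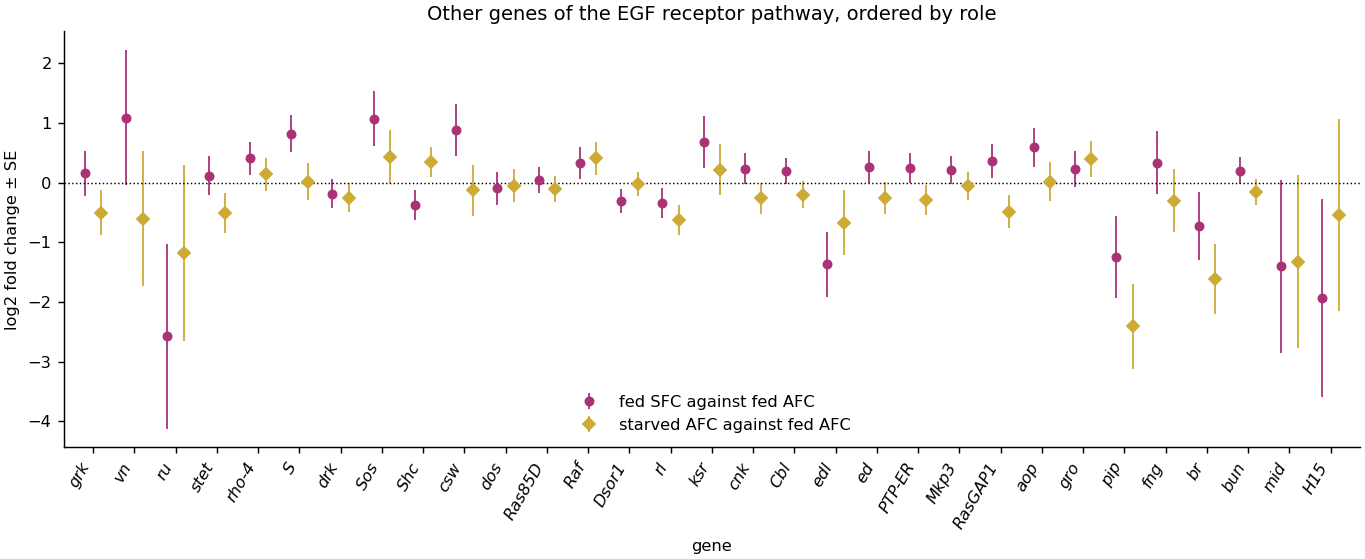
Log2 fold change ± SE of the 31 other pathway genes in SFCs (circles) and starved AFCs (diamonds), each against the same fed AFC libraries, from ligands at the left to follicle cell targets at the right. In SFCs the values run from -2.58 for *ru* to 1.09 for *vn*, and *pip* in starved AFCs, at -2.41, is the farthest from 0 relative to its SE.

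Genes whose log2 CPM followed a pathway gene most closely over the 9 libraries were found among 9255 genes with a mean of at least 1 CPM. For *Egfr* these were *CG42674*, *ninaD* and *Obsc* (Pearson r = 0.950, 0.938 and 0.932), for *cic* they were *CG3638*, *Dok* and *S* (0.993, 0.988 and 0.985), and for *spi* they were *Mccc1*, *CG9143* and *CG32344* (0.964, 0.961 and 0.927). The correlations describe 9 points that share libraries, groups and depth. *S*, whose product acts on Spitz, was the third closest in pattern to *cic*. Like *CG3638* and *Dok*, it had its highest levels in the same SFC replicates 3 and 2.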

How the data were processed

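TRAP-seq libraries (9, 3 per group) were analysed. The secretome and single-cell data of the study are not analysed here. The study's methods name the TruSeq v2 kit, which does not mark strand, and Salmon 1.1.0 against BDGP6.32. The deposited expected counts (Salmon's estimated reads per transcript) were made by the authors without normalization. The deposited TPM values were computed by the authors' Salmon run over effective lengths. Of 30215 transcripts, 30179 matched BDGP6.54 by identifier. Counts were summed per gene and rounded, and TPM were summed for levels only and entered no test.

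Genes were filtered by filterByExpr (minimum count 10), scaled by TMM and tested with the quasi-likelihood F-test of edgeR (version 4.0.16 in R 4.3.3), over all 9 libraries with a mean for each group and Benjamini-Hochberg adjustment over 10870 genes. The fit was tested on simulated data. SEs and 95% intervals came from the LFC and its F statistic, and TMM scaling gave the CPM. Alternatives were DESeq2 size factors, other count filters, DESeq2 1.42.0, limma-voom (limma 3.58.1), effective-length offsets, only the groups compared, a replicate block, no rRNA genes, an adjusted p of 0.01 and libraries left out. The non-overlap count without fed AFC replicate 1 and SFC replicate 2 was chosen after seeing the data.

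Members and lists were chosen with earlier results of these data known. Named genes were all members, *grk*, *vn*, *S*, *ru*, *aop*, *br*, any listed gene past the threshold, and the 3 genes most correlated with *Egfr* and with the member of smallest p in each comparison.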

Additional observations from a re-analysis of the deposited data

How the results depend on the processing

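The number of the 10 pathway genes called between SFCs and fed AFCs was 0 in edgeR and limma-voom, 2 in DESeq2, and 0 to 1 when any 1 library was left out. It was 0 in the other comparisons under every alternative run. Genes called among all genes tested depended more on the processing. In SFCs against fed AFCs edgeR called 325, DESeq2 1061, an adjusted p below 0.01 gave 87, and leaving out 1 library gave 85 to 487. In starved against fed AFCs edgeR called 24, DESeq2 101, an adjusted p below 0.01 gave 7, a fit of only these groups 15, and leaving out 1 library 8 to 23. In SFCs against starved AFCs edgeR called 241, DESeq2 891, an adjusted p below 0.01 gave 62, and leaving out 1 library 111 to 383. Without SFC replicate 3, 197 genes were called against fed AFCs, 115 of them higher. The cause of these differences was not tested. With the replicate number as a block, 186 genes were called in SFCs against fed AFCs and the block changed no call on the 10 genes. Same-numbered libraries correlated at -0.53 to 0.39 in their deviations from group means, so the numbers were not taken to pair samples. The highest such correlation between libraries of different groups, 0.64, was that of fed AFC replicate 1 with starved AFC replicate 2. By read share instead of TPM share, *cic-RG* in SFCs held 79.4% instead of 62.2%. Of the LFC values under alternatives, 594 stayed on their side of the threshold and 3 crossed it. *rho*, *aos* and *mirr* had at most 216 reads in a library and *kek1* had 38 to 294, which limits these genes.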
